A study of Mus musculus with 9 samples.

Results

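The regions described here were bound by TGIF1 in induced mouse leukaemia cells and carried MEIS1 in the longer of the 2 peak lists of each treatment, but not in the shorter ones. They were chosen by the presence and absence of peaks in all 8 lists of the series. A region had a peak in both TGIF1 4-OHT lists and in replicate 2 of MEIS1 4-OHT and of MEIS1 EtOH. It had none in replicate 1 of either MEIS1 treatment and none in either TGIF1 EtOH list. Peaks that overlapped by at least 1 bp had first been joined across lists, which turned 182249 peaks into 60709 merged regions. Of these, 1412 met the rule. They were 2.33% of all merged regions and 12.8% of the 11039 with both TGIF1 4-OHT peaks. Since presence and absence of peaks chose them, the pattern itself is a description and was not tested. The number depended on the lists: 880 regions met the rule when the lists of each group were cut to equal length, 4609 without TGIF1 4-OHT replicate 1 and 2551 without MEIS1 EtOH replicate 1. Their base is the regions with the required TGIF1 4-OHT peaks and no TGIF1 EtOH peak. Of that base they were 13.6% of 6487, 19.4% of 23754 and 29.3% of 8692, beside 16.2% of 8692 as reported.

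The study asked where TGIF1 and MEIS1 bind in cells transformed by MLL-AF9. MLL-AF9, a leukaemia fusion oncogene, had been put into c-kit+ progenitors from C57BL/6 bone marrow, and every culture also carried pMIG-TGIF1-ER, a construct whose TGIF1 protein is activated by 4-OHT (4-hydroxytamoxifen). With a TGIF (H-172) antibody and a Meis antibody, chromatin was precipitated from cells given 4-OHT for 20 h and from cells given EtOH, the vehicle, giving 4 groups of 2 libraries. Effects of 4-OHT itself and of activated TGIF1-ER cannot be told apart, as all groups, the EtOH cells included, carried the construct. TGIF1 in these libraries is protein from the transduced construct together with any endogenous protein the antibody recovered. Nothing in the labels tells whether replicates were grown separately, so differences between them may be technical. The IgG sample was not analysed here.

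TGIF1 and MEIS1 are both homeodomain proteins of the TALE class, named for a short loop extension within the homeodomain. MEIS1 works with PBX and HOX proteins, and together with HOXA9 it is a well known driver of MLL-rearranged leukaemia. TGIF1 is a repressor that recruits corepressors and limits transcription driven by SMAD proteins and retinoid receptors. Both recognise closely related short DNA cores. ChIP-seq of a pool of cells does not show whether both proteins sat on the same DNA molecule.

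The lists of the 2 replicates differed in length in both MEIS1 treatments. MEIS1 4-OHT replicate 2 held 48829 peaks and replicate 1 held 21173, while MEIS1 EtOH replicate 2 held 43564 and replicate 1 held 26254. The TGIF1 4-OHT lists held 12141 peaks (replicate 1) and 26932 (replicate 2), and the TGIF1 EtOH lists held 2764 and 592. The name of the regions was thus borne out by the list lengths. The lists give positions, lengths and summits without scores or read numbers, so depth is unknown, and the absence of a peak does not show the absence of the protein.

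Presence of MEIS1 in both replicate 2 lists alone was the second most frequent MEIS1 pattern at induced TGIF1 sites, meaning the 8692 regions with both TGIF1 4-OHT peaks and no TGIF1 EtOH peak. Among these, the 1412 members made up 16.2% (exact 95% interval 15.5 to 17.0%, counting error only). Ahead of them stood the 3893 sites (44.8%) with MEIS1 in all 4 lists. Behind them came 1139 sites (13.1%) that also had MEIS1 EtOH replicate 1, 1092 (12.6%) with no MEIS1 peak and 364 (4.19%) that also had MEIS1 4-OHT replicate 1. The mirror pattern, with MEIS1 in both replicate 1 lists and neither replicate 2 list, was found at 5 sites. The mirror count was added after the data were seen, and it was 69 with lists of equal length and 87 where peaks were joined by centres within 200 bp. Patterns that followed treatment were also infrequent. MEIS1 was present in both 4-OHT lists and absent from both EtOH lists at 29 sites, and present in both EtOH lists and absent from both 4-OHT lists at 78.

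**Figure D1:**
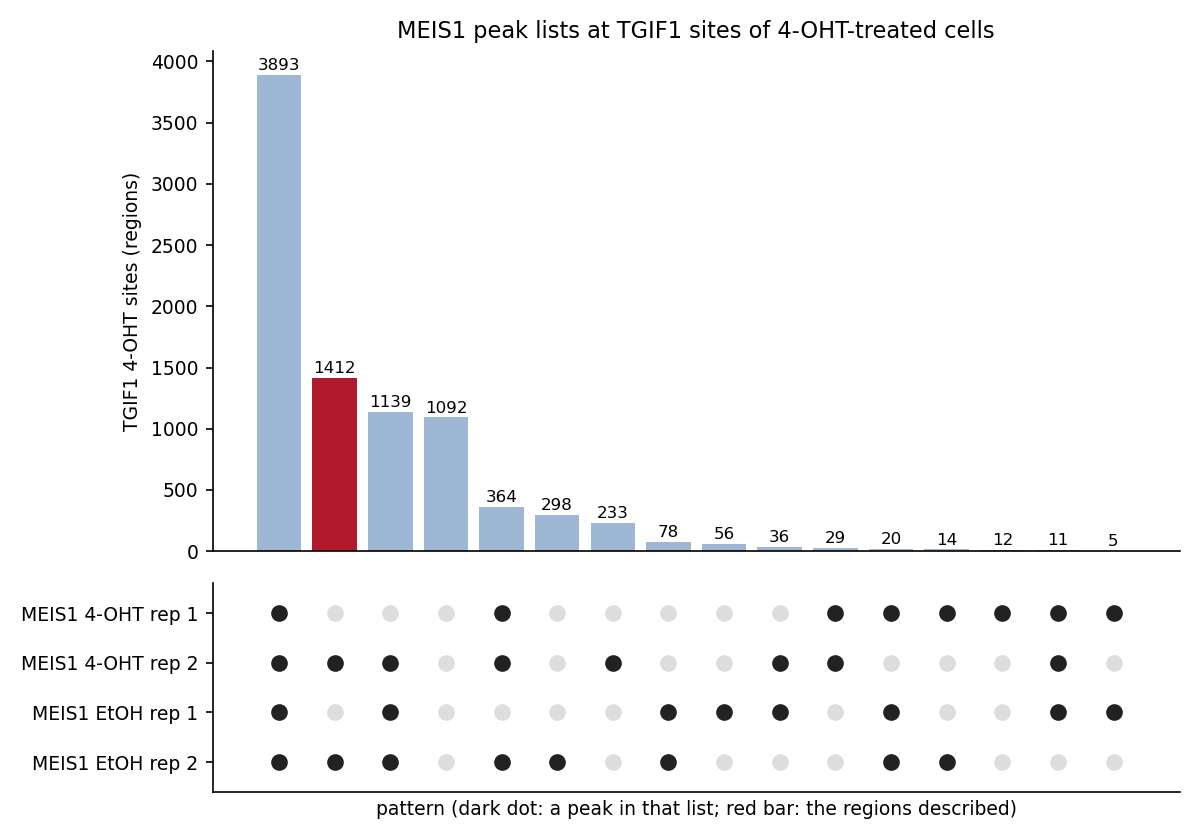
Number of induced TGIF1 sites (y axis, regions) for each of the 16 combinations of MEIS1 lists, where a dark dot marks a peak in that list. The red bar is the 1412 regions with MEIS1 in both replicate 2 lists only, second to the 3893 with MEIS1 in all 4 lists.

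TGIF1 sites with a peak under EtOH showed the pattern too. At 398 of the 2347 regions with both TGIF1 4-OHT peaks and a TGIF1 EtOH peak, MEIS1 was likewise in both replicate 2 lists only, which is 17.0%. These 398 regions are not members.

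The share of MEIS1 sites missing from both replicate 1 lists was also taken over regions without TGIF1. Of the 6808 induced TGIF1 sites with both MEIS1 replicate 2 peaks, the members were 20.7% (exact 95% interval 19.8 to 21.7%). Over all 37986 regions with both MEIS1 replicate 2 peaks, 34.5% lacked both replicate 1 lists. At the 20115 such regions without any TGIF1 peak the share was 39.7%, and at the 8867 with a peak in 1 TGIF1 4-OHT list and no TGIF1 EtOH list it was 36.5%. The rule used these lists, so the shares are a description. Of the induced TGIF1 sites, 2414 lay in the class with the longest MEIS1 peaks and 575 in the class with the shortest, beside 1588 and 5897 of the regions without TGIF1. The shares were therefore also taken within 5 classes of MEIS1 length.

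Absence from the replicate 1 lists also occurred among the longest MEIS1 peaks. In the class with the longest MEIS1 replicate 2 peaks, 437 of 2414 induced TGIF1 sites (18.1%, exact 95% interval 16.6 to 19.7%) had no peak in either replicate 1 list. Without TGIF1 the share in that class was 429 of 1588 (27.0%, 24.8 to 29.3%). In the middle class the shares were 21.0% with TGIF1 and 30.4% without, and in the class with the shortest peaks 35.3% with TGIF1 and 53.8% without. The share was lower with both TGIF1 peaks than without TGIF1 in each of the 5 classes. The classes are of MEIS1 length and not of region width. Joined TGIF1 peaks can widen a region until it takes in a further MEIS1 peak, which was not tested. Regions with 1 TGIF1 4-OHT list did not keep their overall order: from the longest to the shortest class their shares were 31.5, 34.6, 34.6, 41.9 and 48.6%, beside 27.0, 30.2, 30.4, 41.1 and 53.8% without TGIF1. They lay above the regions without TGIF1 in each class but the one with the shortest peaks. Regions of the same libraries are not replicates, so this ordering describes these lists and was not tested.

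**Figure D2:**
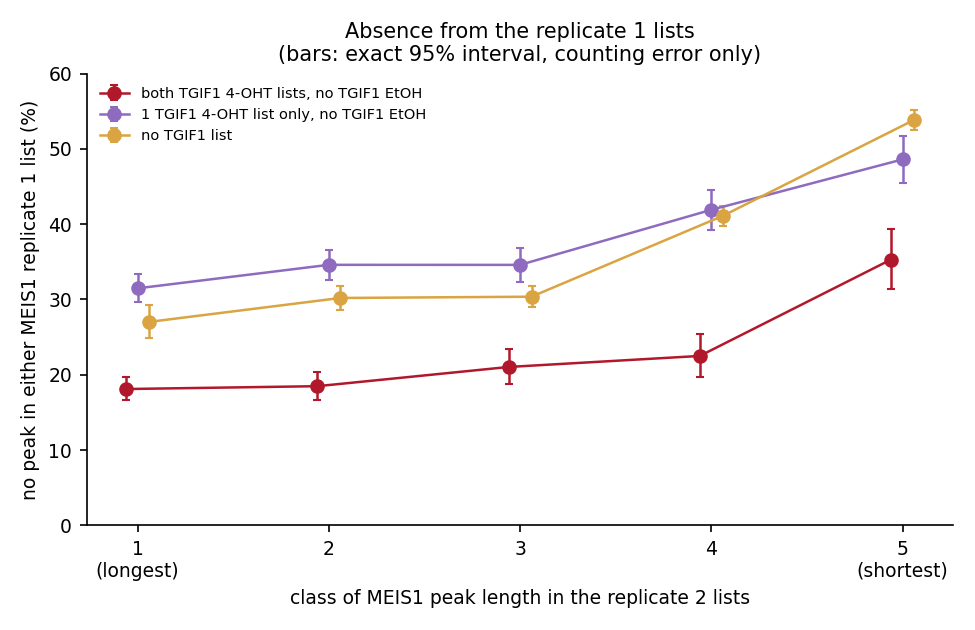
Share of regions with no peak in either MEIS1 replicate 1 list (y axis, percent) over 5 classes of MEIS1 length in the replicate 2 lists (x axis, longest to shortest), with exact 95% intervals. Regions with both TGIF1 4-OHT lists (red) run between 18.1 and 35.3% and lie below regions without TGIF1 (yellow), which run between 27.0 and 53.8%, while regions with 1 TGIF1 4-OHT list (purple) run between 31.5 and 48.6%.

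The members were wide regions. Width spans all joined peaks, so it can rise with the number of lists that a class requires. Members need peaks in 4 lists. Sites with MEIS1 in all 4 lists need more, and the classes without MEIS1 or without TGIF1 need fewer. Region width had a median of 961.5 bp and ranged from 365 to 4509 bp. Sites with MEIS1 in all 4 lists had a median width of 888 bp, and induced TGIF1 sites without MEIS1 539 bp. MEIS1 regions of the same 2 lists without TGIF1 had a median of 592 bp. In 1224 members each of the 4 lists had exactly 1 peak, and in 188 at least 1 list had more. A stretch shared by a peak of every list was found in 1339 members, with a median of 405 bp. In 17 of these it was no longer than 50 bp, just inside the overlap rule. In the other 73 members the 4 lists were linked by chains of overlapping peaks with no base common to all.

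The length of a member was carried by TGIF1 4-OHT replicate 2 and MEIS1 more than by TGIF1 4-OHT replicate 1. In TGIF1 4-OHT replicate 2 the longest peak per member had a median of 783 bp (quartiles 584.75 and 1094.25 bp), against 659 bp at sites with MEIS1 in all 4 lists and 536 bp at sites with none. In TGIF1 4-OHT replicate 1 the medians were 426 bp in members, 435 bp with MEIS1 in all 4 lists and 388 bp with none. The 2 replicates thus put members in a different place relative to sites with MEIS1 in all 4 lists. In replicate 2, 78.0% of members were above the median of the whole list, which is 567 bp. In replicate 1, 46.0% were above its median of 438 bp. The share was also higher in replicate 2 than in replicate 1 in the other classes. It was 69.8 and 48.3% at sites with MEIS1 in all 4 lists, and 40.4 and 25.1% at sites with none.

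MEIS1 peaks of the members lay between those of the other classes. In MEIS1 4-OHT replicate 2 the median length was 674.5 bp in members, 718 bp at sites with MEIS1 in all 4 lists and 526 bp at MEIS1 sites of the same pattern without TGIF1. In MEIS1 EtOH replicate 2 the medians were 729, 796 and 565 bp in the same order of classes. Ranked by length within their list, where 0% is the longest peak, members stood at a median of 30.4% under 4-OHT and 32.7% under EtOH. MEIS1 peaks of the same pattern without TGIF1 stood at 63.0% and 69.1%. A member's MEIS1 peak was therefore typically in the longer part of its list although the other replicate listed none.

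**Figure D3:**
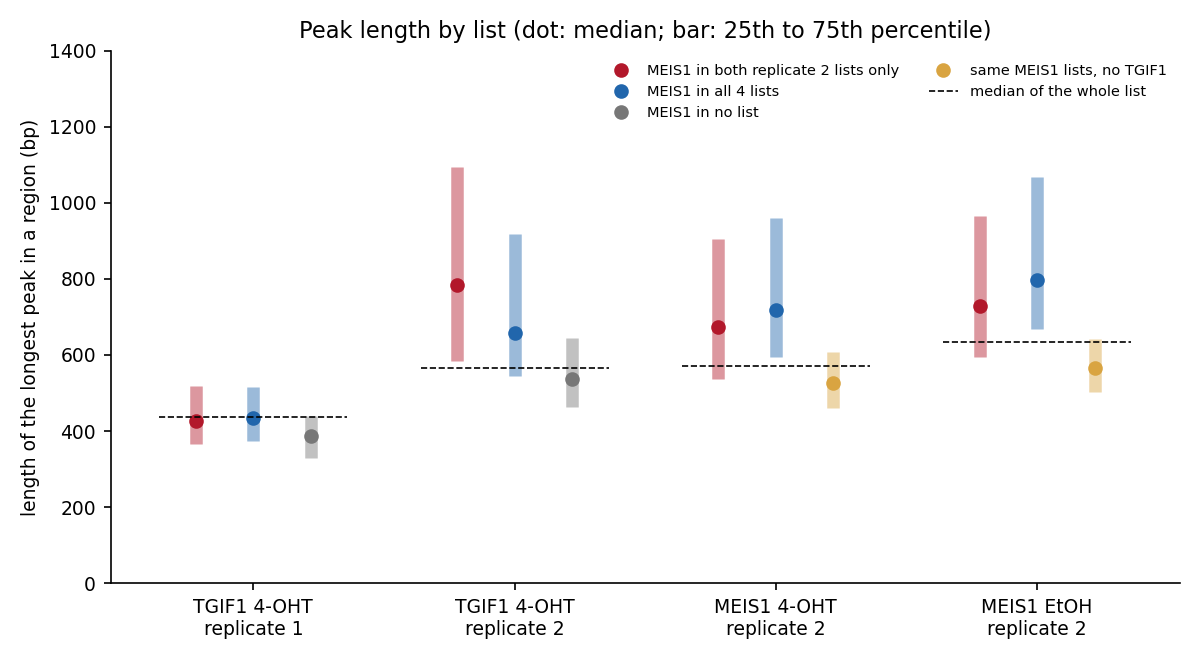
Length of the longest peak per region (y axis, bp) in the 4 lists that define the members, with median (dot), quartiles (bar) and the median of the whole list (dashed). In TGIF1 4-OHT replicate 2 the members (red) have the highest of the 3 medians, 783 bp, and in both MEIS1 lists they stand between the other classes.

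MEIS1 replicate 2 peaks at the members were slightly shorter under 4-OHT than under EtOH, and the replicate 1 libraries went the other way at sites where they had peaks. The median log2 ratio of MEIS1 4-OHT to MEIS1 EtOH length was -0.10 over the 1412 members, with quartiles of -0.26 and 0.04. MEIS1 was longer under 4-OHT at 454 members (32.2%), and the lengths were within 2-fold of each other at 1369 (97.0%). The share within 2-fold was 98.5% over all regions with both MEIS1 replicate 2 peaks. It was 97.3% at sites with MEIS1 in all 4 lists and 99.1% at MEIS1 sites of the same pattern without TGIF1. Over all 37986 regions with both MEIS1 replicate 2 peaks the median log2 ratio was also -0.10, and MEIS1 was longer under 4-OHT at 30.3%. At sites with MEIS1 in all 4 lists it was -0.12 and 22.9%. In replicate 1, which lists no MEIS1 peak at the members, the median log2 ratio was 0.17 at sites with MEIS1 in all 4 lists and 0.23 over the 16317 regions with both replicate 1 peaks. MEIS1 was longer under 4-OHT at 70.2 and 74.0% of these. The sign thus differed between replicates, and the length difference in members cannot be told apart from a difference between the 2 replicate 2 libraries. Because the rule leaves 1 MEIS1 library per treatment, there is no replicate check within the members and no test.

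Across members, peak lengths went together within a protein and between proteins. Spearman's rho over the 1412 members was 0.75 between the 2 MEIS1 libraries and 0.47 between the 2 TGIF1 libraries. Between proteins it was 0.58 and 0.59 for TGIF1 4-OHT replicate 2 with MEIS1 4-OHT and MEIS1 EtOH, and 0.37 and 0.35 for TGIF1 4-OHT replicate 1. TGIF1 replicate 2 length therefore followed MEIS1 replicate 2 length more closely than it followed its own replicate. At sites with MEIS1 in all 4 lists the TGIF1 replicates gave 0.60, and TGIF1 4-OHT replicate 2 gave 0.62 with each of the MEIS1 replicate 2 libraries. These values describe regions that share libraries, and the replicate number is also shared between antibodies.

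TGIF1 and MEIS1 summits, the points of highest signal within a peak, lay close together in most members, with a large minority apart. The median distance, taken between the nearest summits of a region, was 39 bp for TGIF1 4-OHT replicate 1 with MEIS1 4-OHT replicate 2 and 40 bp with MEIS1 EtOH replicate 2. For TGIF1 4-OHT replicate 2 it was 33 and 32 bp. The share within 50 bp was 55.5, 55.8, 58.2 and 58.9% in these 4 pairs of libraries. Over all regions with both peaks of a pair it was 64.5, 64.9, 63.4 and 63.5%. The pooled median of 36 bp was 80 bp with lists of equal length, 56 bp with the longer 50% of each list and 73.5 bp between peak centres. Each member share lay below the share over all regions of its pair. The 4 pairs share libraries and regions, so their spread does not measure variation between samples, and no test was made.

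At sites with MEIS1 in all 4 lists the 2 proteins were closer. The same 4 pairs had medians of 26, 26, 20 and 21 bp there, and 67.6 to 70.9% of summits lay within 50 bp. Summits over 200 bp apart made up 26.0 to 26.6% of members and 13.1 to 13.9% of sites with MEIS1 in all 4 lists. Over all regions with both peaks of a pair they made up 17.3 to 18.8%, and the medians there were 27 to 28 bp. Pooled over the 4 pairs, the median was 36 bp in members and 23 bp at sites with MEIS1 in all 4 lists. The lower median at such sites appeared in each of the 4 pairs, but the pairs share libraries and no test over samples exists.

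Summits of the same protein were also farther apart in members. For MEIS1, the summits of 4-OHT replicate 2 and EtOH replicate 2 had a median distance of 22 bp in members and 9 bp at sites with MEIS1 in all 4 lists. They were within 50 bp of each other at 75.8% of members (exact 95% interval 73.5 to 78.1%), at 92.7% of sites with MEIS1 in all 4 lists and at 84.4% of MEIS1 sites of the same pattern without TGIF1. Over all regions with both peaks it was 87.9%. For TGIF1, the 2 replicates were 17 bp apart in members and 15 bp at sites with MEIS1 in all 4 lists, and 80.9 and 86.3% lay within 50 bp, beside 86.7% over all regions with both peaks. The difference between the classes was larger for MEIS1 than for TGIF1.

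**Figure D4:**
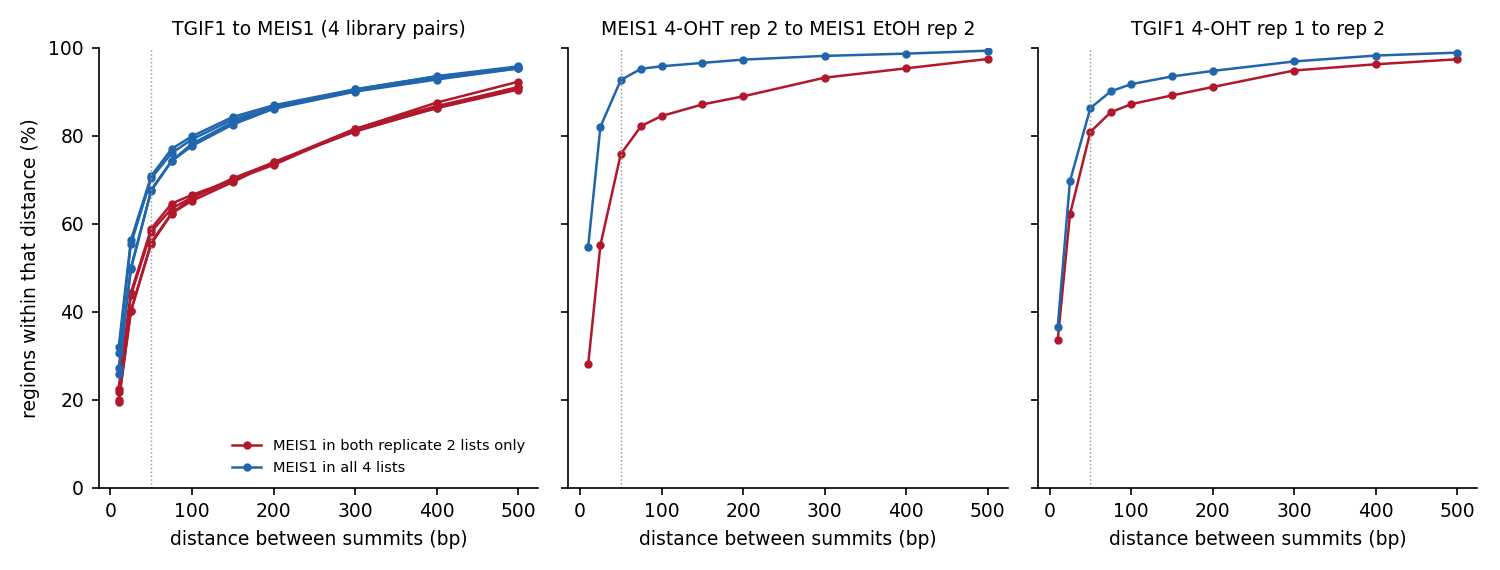
Cumulative share of regions (y axis, percent) whose summits lie within a given distance (x axis, bp), for TGIF1 to MEIS1 (4 pairs of libraries), MEIS1 to MEIS1 and TGIF1 to TGIF1. Members (red) run below sites with MEIS1 in all 4 lists (blue) in each panel, at 50 bp by 75.8 against 92.7% for MEIS1 and by 80.9 against 86.3% for TGIF1.

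The distances also differed within classes of region width. Region width includes MEIS1 replicate 1 peaks at the sites with MEIS1 in all 4 lists, and none in members. Equal region width is therefore not equal width of the 4 lists compared. Among regions with 1 peak per list, split into 5 classes of width, the TGIF1 to MEIS1 distance in the narrowest class (up to 648 bp) had a median of 17 bp in the 285 members and 15 bp in the 526 sites with MEIS1 in all 4 lists. In the widest class (over 1167 bp) it was 232 bp in the 308 members and 53 bp in the 640 other sites. The 3 classes between had medians of 25, 39 and 46 bp in members and 17, 24 and 30 bp in the other sites. MEIS1 summits of the 2 treatments were 15 to 27 bp apart in members over the 5 classes, and 9 to 10 bp apart at sites with MEIS1 in all 4 lists. TGIF1 replicates were 13 bp apart in both in the narrowest class, and 23 and 20 bp apart in the widest.

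The 4 summits of each region were then compared jointly. In 499 of the 1224 members with 1 peak per list (40.8%, exact 95% interval 38.0 to 43.6%), all 4 summits fell within 50 bp. This share was 57.7% at sites with MEIS1 in all 4 lists, and 53.6% over all 7568 regions with 1 peak in each of these 4 lists. In 160 members (13.1%) the TGIF1 summits agreed within 50 bp, the MEIS1 summits agreed within 50 bp, and the 2 pairs lay at least 100 bp apart. The share over all such regions, members included, was 11.6%, within the exact interval of the members, 11.2 to 15.1%. The gap in these 160 members had a median of 327.5 bp and reached 1121 bp. At sites with MEIS1 in all 4 lists the share was 10.6%, below the interval of the members. That interval is for counting error only, and no test was made. These shares are of all regions with 1 peak per list, also those whose pairs did not agree.

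In the remaining members the summits of at least 1 protein were scattered, or both pairs lay close. In 213 members (17.4%) the TGIF1 summits agreed within 50 bp and the 2 MEIS1 summits did not, compared with 5.69% at sites with MEIS1 in all 4 lists and 9.61% over all such regions. In 158 (12.9%) the MEIS1 summits agreed and the TGIF1 summits did not, beside 12.1 and 11.2%. Neither protein agreed in 78 members (6.37%), beside 1.63 and 2.96%. In the last 116 members (9.48%) each pair agreed and the gap was below 100 bp, beside 12.2 and 11.2%.

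Summit arrangement went with peak length. The link is partly built in, since summits lie inside their peaks and pairs far apart need room. Members with all 4 summits within 50 bp had median lengths of 414 and 614 bp in the 2 TGIF1 4-OHT lists, 560 bp in MEIS1 4-OHT and 618 bp in MEIS1 EtOH. Members with separated pairs had 444 and 920 bp for TGIF1, 782.5 bp for MEIS1 4-OHT and 836.5 bp for MEIS1 EtOH. The compact members were thus shorter in each list, and least so in TGIF1 4-OHT replicate 1.

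Named members were taken by rule: the 10 with the best mean length rank over their 4 lists, and the 5 with the smallest and the 5 with the largest span of the 4 summits. All positions are mm9, counted from 1, and each list's summit is given relative to the TGIF1 4-OHT replicate 1 summit, positive towards higher coordinates. Where a list had several peaks in a region, the set of 4 summits with the smallest span was used, and the others are given beside it. No annotation or sequence of mm9 was used here, so neither genes nor motifs are given. Windows of 1 Mb in which 3 or more lists shared very long peaks (3 kb and up) held 6 of the 1412 members (0.425%). They held 0.705% of all merged regions and none of the 20 named members.

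Among the 10 longest members, 3 had all summits together. The region on chromosome 7 from 88972992 to 88975023 had peaks of 867 and 1961 bp for TGIF1, 1666 bp for MEIS1 4-OHT and 1796 bp for MEIS1 EtOH, and its 4 summits spanned 14 bp. A region on chromosome 3 from 126298974 to 126300961 had peaks of 824, 1900, 1910 and 1578 bp in the same order of lists, with a span of 13 bp. On chromosome 11 from 84631619 to 84633429 the peaks were 877, 1743, 1340 and 1364 bp long and the summits spanned 47 bp. In each of them the MEIS1 peaks were at least 1340 bp long, and neither MEIS1 replicate 1 list held any peak.

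In 4 others TGIF1 and MEIS1 were separated, with both libraries of each in agreement. On chromosome 15 from 34011711 to 34013784, the TGIF1 4-OHT replicate 2 summit lay at -7 bp, MEIS1 4-OHT at 754 bp and MEIS1 EtOH at 725 bp. On chromosome 11 from 117847180 to 117848868 they lay at 9, 586 and 564 bp, and on chromosome 9 from 106072853 to 106074410 at 8, -442 and -459 bp. On chromosome 3 from 103612636 to 103614410 they lay at -4, 219 and 218 bp. This last member had the longest TGIF1 4-OHT replicate 1 peak of all members, 1452 bp, beside 1770 bp in TGIF1 4-OHT replicate 2, 1310 bp in MEIS1 4-OHT and 1449 bp in MEIS1 EtOH. Under both treatments MEIS1 thus lay on the same side of TGIF1 in each of these 4 regions.

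The other 3 were mixed. The leading member, on chromosome 3 from 115709445 to 115711502, had 2 TGIF1 4-OHT replicate 1 peaks, the longer of 1042 bp and another of 459 bp. Its peaks in the other lists were 2000 bp for TGIF1 4-OHT replicate 2, 1992 bp for MEIS1 4-OHT and 1990 bp for MEIS1 EtOH. Relative to the summit of the 459 bp peak, MEIS1 4-OHT lay at -56 bp, while TGIF1 4-OHT replicate 2 and MEIS1 EtOH lay at 750 and 761 bp. The summit of the 1042 bp peak lay at 760 bp, so TGIF1 4-OHT replicate 1 had a summit near each MEIS1 summit. The MEIS1 summits of the 2 treatments lay apart, at -56 bp under 4-OHT and 761 bp under EtOH, in a region 2058 bp wide. On chromosome 13 from 108948086 to 108949608 the TGIF1 summits were 6 bp apart and MEIS1 lay at -138 bp under 4-OHT and -542 bp under EtOH. On chromosome 15 from 76730045 to 76731618 MEIS1 lay at -522 and -519 bp, and TGIF1 4-OHT replicate 2 at 207 bp.

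The smallest spans were 3 to 4 bp. They occurred in 7 members with mean length ranks of 19.2 to 84.0%, and among equal spans the longer members were named. The closest, on chromosome 16 from 44410202 to 44410716, was 515 bp wide, with TGIF1 peaks of 367 and 356 bp and MEIS1 peaks of 515 bp under 4-OHT and 509 bp under EtOH. Its summits lay at 0, -2, 0 and 1 bp, and its mean length rank of 80.6% put it among short peaks. On chromosome 2 (153317896 to 153318977) the summits spanned 4 bp, with MEIS1 peaks of 845 bp under 4-OHT and 975 bp under EtOH. The span was also 4 bp on chromosome 1 (95341277 to 95342582), with MEIS1 peaks of 1306 and 1261 bp, and on chromosome 8 (81818266 to 81819216), with 926 and 876 bp. The last of the 5, on chromosome 15 (97203697 to 97204691), had MEIS1 peaks of 600 and 624 bp and the same span. Over all members the span had a median of 87 bp with quartiles of 34 and 356.25 bp. It was at most 10 bp in 38 members, a count not taken over other regions.

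The 5 widest spans ran from 1624 to 1937 bp. On chromosome 7 from 109396996 to 109399577, TGIF1 summits were 13 bp apart, and MEIS1 lay at 1920 bp under 4-OHT and 1835 bp under EtOH. On chromosome 7 from 35011737 to 35015616, a TGIF1 4-OHT replicate 2 peak of 3863 bp shared the region with 3 replicate 1 peaks, whose summits lay at -1431, 0 and 1120 bp, and MEIS1 peaks of 473 and 535 bp lay at 1891 and 1832 bp. On chromosome 15 from 81687709 to 81690851 TGIF1 4-OHT replicate 1 had 2 peaks, with summits at 0 and -1468 bp. The replicate 2 summit of TGIF1 lay at -1437 bp, close to the second, and MEIS1 lay at 20 bp under 4-OHT and 500 bp under EtOH. On chromosome 5 (130416577 to 130418948) TGIF1 4-OHT replicate 1 had 3 peaks, with summits at -371, 0 and 1528 bp, and the replicate 2 summit lay at 1525 bp. MEIS1 4-OHT had 2 peaks there, at -323 and 1516 bp, and MEIS1 EtOH had 1, at -343 bp. On chromosome 10 (79610264 to 79612890) MEIS1 lay at 1624 bp under 4-OHT. Under EtOH it had 2 peaks, of 760 bp with a summit at 37 bp and of 1450 bp with a summit at 1308 bp. In these last 3 regions each TGIF1 4-OHT replicate 2 summit had a replicate 1 summit nearby. Spans over 500 bp occurred in 218 members, a count not taken over other regions.

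**Figure D5:**
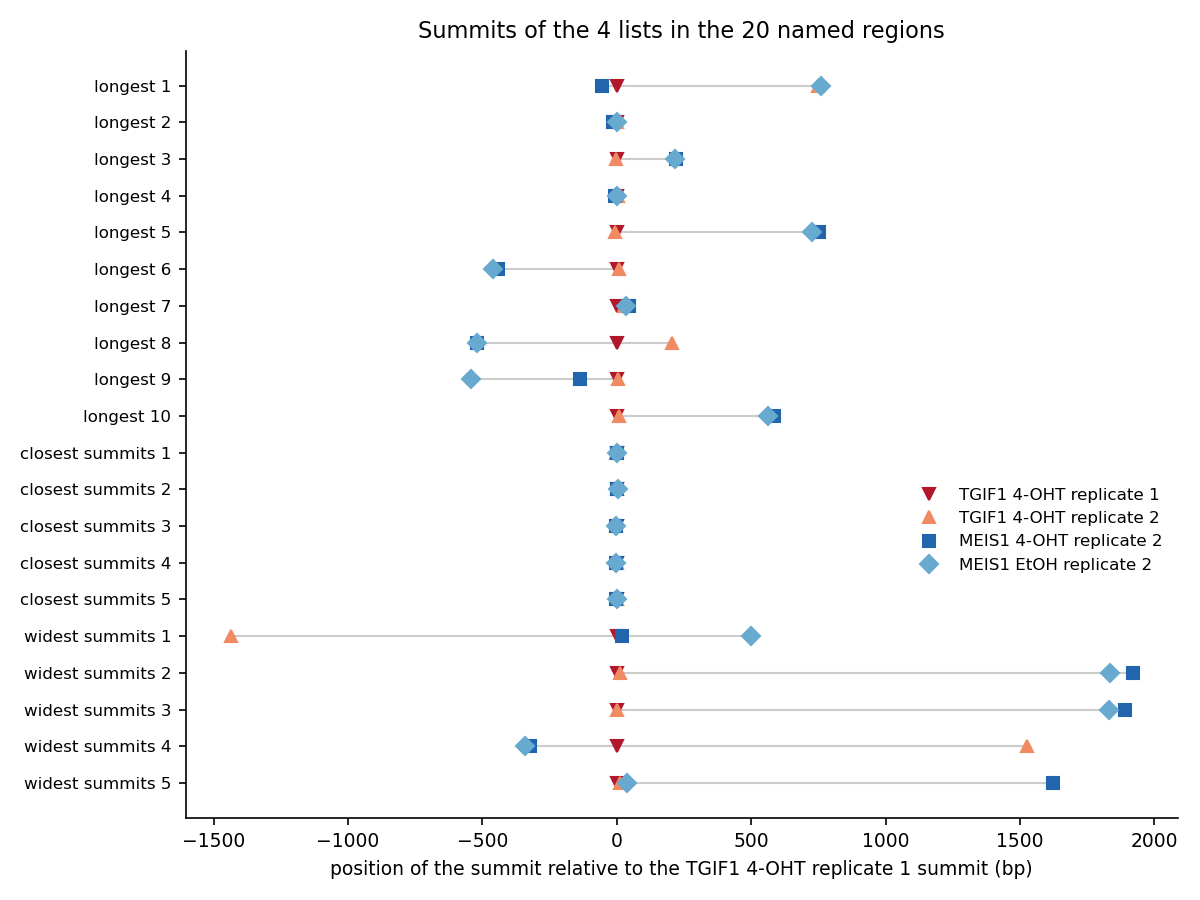
Summit positions in the 20 named members (rows), relative to the TGIF1 4-OHT replicate 1 summit (x axis, bp), 1 symbol per list (where a list has several peaks, the one in the set with the smallest span). TGIF1 (red and orange) and MEIS1 (dark and light blue) coincide in the rows with closest summits and split by 218 bp or more in 4 of the 10 longest rows with both libraries of each protein together.

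Some members sat beside a peak of a list that the rule excluded, and the same share was not taken over other regions. Within 500 bp outside the region, 104 members (7.37%, exact 95% interval 6.06 to 8.85%) had such a peak. MEIS1 EtOH replicate 1 had one at 88, MEIS1 4-OHT replicate 1 at 52, TGIF1 EtOH replicate 1 at 12 and TGIF1 EtOH replicate 2 at 3. On the other side of the rule stood sites that failed it by 1 list. The 1139 that failed by MEIS1 EtOH replicate 1 had peaks there with a median of 359 bp, close to that list's 362 bp. The 364 that failed by MEIS1 4-OHT replicate 1 had a median of 410 bp there, below that list's 442 bp. Their MEIS1 replicate 2 peaks, 648 bp for 4-OHT and 716 bp for EtOH in the first case and 644 and 686 bp in the second, were no longer than those of the members.

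Most members had another merged region nearby. The nearest other merged region lay within 10 kb at 77.8% of members (exact 95% interval 75.6 to 80.0%), 77.4% of sites with MEIS1 in all 4 lists and 77.7% of sites with no MEIS1. Over all merged regions it was 72%. The median number of merged regions within 50 kb was 7 in each of these 3 classes, and 6 over all. Another member lay within 50 kb of 269 members (19.1%), with at most 3 such neighbours. A member lay as close to 16.5% of sites with MEIS1 in all 4 lists, 22.3% of sites with no MEIS1 and 14.6% of all merged regions.

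Members were found on all 19 autosomes and on chromosome X, in uneven shares. They made up 20.1% of induced TGIF1 sites on chromosome 19 (60 of 299), 19.5% on chromosome 11 (129 of 660) and 19.4% on chromosome X (12 of 62). The lowest shares were 10.6% on chromosome 18 (26 of 245) and 11.1% on chromosome 13 (48 of 431). The exact intervals, for counting error only, were 8.33 to 14.5% on chromosome 13 and 16.6 to 22.8% on chromosome 11. That of chromosome X, 10.4 to 31.4%, covers nearly the whole range. The share over all induced TGIF1 sites was 16.2%. Chromosomes were compared after their values were seen, and neither the order nor any difference between them was tested. On chromosome 13, sites with MEIS1 in all 4 lists had their highest share, 53.4%, and on chromosome X their lowest, 21.0%.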

How the data were processed

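The 8 deposited lists, 1 per library, give chromosome, start, end, length and summit of the authors' peaks, with no score. The submitters' processing notes name Bowtie 0.12.7 and build mm9. MACS 1.4.2 appears per the file headers in 1 list, that of MEIS1 4-OHT replicate 2, and for the rest the caller is not given in the sources used here, nor are thresholds or controls. Peaks overlapping by at least 1 bp were joined across lists with Python 3.11.15 (numpy 2.4.6, pandas 2.3.3, scipy 1.17.1, with matplotlib 3.10.9 for plots). Bedtools 2.31.1 gave the same 60709 regions, and the rule and the summit distances were tested on simulated data. Where a list had several peaks in a region, the longest gave the length and the nearest pair of summits the distance. Length rank within a list stood in for a score, also in the choice of the 20 named regions (10 by mean rank, 5 each by smallest and largest summit span). Shares carry exact 95% Clopper-Pearson intervals for counting error alone. Alternatives were other ways of joining, stricter or equal lists, other windows and each library left out. Members, lists and rules were chosen with earlier results of these data known. Gene, promoter and motif comparisons were not run, since no annotation or sequence of mm9 was used here.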

Additional observations from a re-analysis of the deposited data

How the results depend on the processing

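Of the 15 alternatives for the number of members, 11 stayed within 1.5 times of 1412. It was 880 with the longer 50% of each list and also 880 with lists of equal length. The latter shorten every list that is the longer of its group. The 2 counts were 21.6% of 4069 and 13.6% of 6487 regions meeting the TGIF1 conditions under each setting. As reported the share was 16.2% of 8692. With lists of equal length the mirror pattern had 69 sites, beside 5 in the full lists, and with centres within 200 bp to 87; mirror counts were added after seeing the data. Leaving out single libraries gave 1427 to 4609 members, since each removal drops a condition of the rule. The number was highest without TGIF1 4-OHT replicate 1 (19.4% of 23754), and it was 2551 without MEIS1 EtOH replicate 1 (29.3% of 8692). The pooled TGIF1 to MEIS1 distance, 36 bp, was 31 bp with centres within 200 bp, 56 bp with the longer 50% of each list, 80 bp with lists of equal length, 42 bp with the longest peak of each list and 73.5 bp between peak centres, and 31 to 38 bp without single libraries. The pooled share within 50 bp, 57.1%, was 61.6, 48.5, 43.9, 53.8 and 39.7% under the same settings. It was 42.1% within 25 bp, 65.9% within 100 bp, 59.1% in members with a base common to all 4 lists (added after seeing the data) and 55.6 to 60.5% without single libraries. Members had the larger distance than sites with MEIS1 in all 4 lists in all 17 alternatives, and the smaller share in all 19. Only the members were filtered in the settings without an excluding peak within 500 bp and with a base common to all 4 lists. The cause of these changes was not tested. Promoter and motif alternatives were not run. No paired analysis was possible because no result comes from a test. Unknown depth limits every absence.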
